A study of Mus musculus with 121 samples.

Results

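The substantia nigra of adult mice heterozygous for a conditional hypermorphic Gdnf allele (HET) was compared with that of wild-type littermates (WT) after Cre recombinase had been delivered to the striatum with an adeno-associated virus (AAV). The libraries were taken by their labels, 7 HET and 7 WT nigral libraries of the AAV-Cre experiment, which is 14 of the 121 libraries of the series. The series covers prefrontal cortex, striatum (STR) and substantia nigra (SN) of this experiment and of a second model in which Cre came from a Nestin-Cre transgene. RNA was sequenced from poly(A)-selected stranded libraries, and the values are read counts per gene.

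All 14 mice were males on a mixed 129Ola/ICR/C57bl6 background and were 5 to 7 months old. Every mouse, WT included, had received AAV-Cre into both striata at 3 to 5 months of age, 2 months before the tissue was taken. The HET mice carried 1 copy of the allele (wt/cKU in the labels, named cHyper by the study) and the WT mice carried none (wt/wt), so that virus and Cre were common to both groups and the allele was not. The allele holds an inverted cassette behind the Gdnf stop codon, and recombination by Cre exchanges the native 3' untranslated region for a polyadenylation signal of another gene. The exchange can alter GDNF only in cells that transcribe the gene, and the virus was given to the striatum and not to the nigra. Mice with 2 copies (HOM, cKU/cKU, 8 nigral libraries) had the same age, background and treatment, and their values are given beside those of HET mice.

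GDNF is a secreted growth factor that binds the co-receptor GFRA1, and this complex activates the receptor tyrosine kinase RET. Dopamine neurons of the substantia nigra carry both receptors, send their axons to the striatum and take up GDNF there, from where it is carried back to the cell body. In grown animals GDNF is known to sustain these neurons and to raise dopamine synthesis and release, and the comparison asks what a change in the native gene in the target region does to RNA in the region where the cell bodies lie.

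Total counts per library ran from 16280873 to 20474159 in WT, from 17808237 to 22728977 in HET and from 11763261 to 21363545 in HOM mice. Levels are given as cpm, with library sizes scaled by the trimmed mean of M-values (TMM), and comparisons between genes as RPKM, which also divides by the length of the gene. A gene was tested when it reached 1 cpm in at least 3 of the 22 nigral libraries, which 14813 genes did. The summed level of a gene list is taken over its tested genes. Differences are HET minus WT on the log2 scale, with the standard error after the ± sign, and come from 7 libraries against 7 unless libraries are named as left out.

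The dissected tissue carried the genes that mark the nigra. All 26 genes of a dopamine neuron list passed the filter, and their summed level was 3864 to 7631 cpm (median 5324) in WT and 5244 to 9397 cpm (median 6084) in HET libraries. The most abundant was Slc6a3, the dopamine transporter, at no less than 798 cpm in any of the 14 libraries. Per length, Slc6a3 (372 RPKM as the WT mean) and Th (346) stood above Ddc (236) and Slc18a2 (141). Markers of the midbrain GABA neurons that surround the dopamine cells were present as well, with all 11 listed genes tested.

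A pair of libraries stood apart from the rest by genes of other tissues. WT library M3587 carried genes of striatal projection neurons, the cells of the injected region. The summed level of 20 tested genes of this kind was 2177 cpm in M3587. It was 910.3 to 1109 cpm in the other 6 WT libraries and 941 to 1020.1 cpm (median 976) in the HET libraries. Over 170 genes that were at least 8-fold higher in striatum than in nigra of Nestin-Cre WT mice, the median level in M3587 was 14.9% of the level in AAV-Cre WT striatum. The same median was 5.53% to 10.05% in the other 13 libraries, the highest of them being WT library M3578. M3587 also had the lowest level of Th, Slc6a3, Ret and Gfra1 among the 14 libraries.

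HET library M3676 carried genes of the choroid plexus, the tissue in the brain ventricles that secretes cerebrospinal fluid. The summed level of the 11 tested choroid plexus genes was 22509 cpm in M3676. It was 47.9 to 265 cpm in the other 6 HET libraries and 45.3 to 113 cpm (median 58.9) in WT libraries. Both libraries were kept, and values without them, called the 2 libraries below, stand beside those from all 14 libraries where they are given, M3587 as a WT library that the choice of samples had named for its striatal genes and M3676 as a library picked after its values were seen. Part of the striatal and choroid plexus differences between the groups comes with these libraries, and the part that the allele has in them was not tested.

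**Figure D1:**
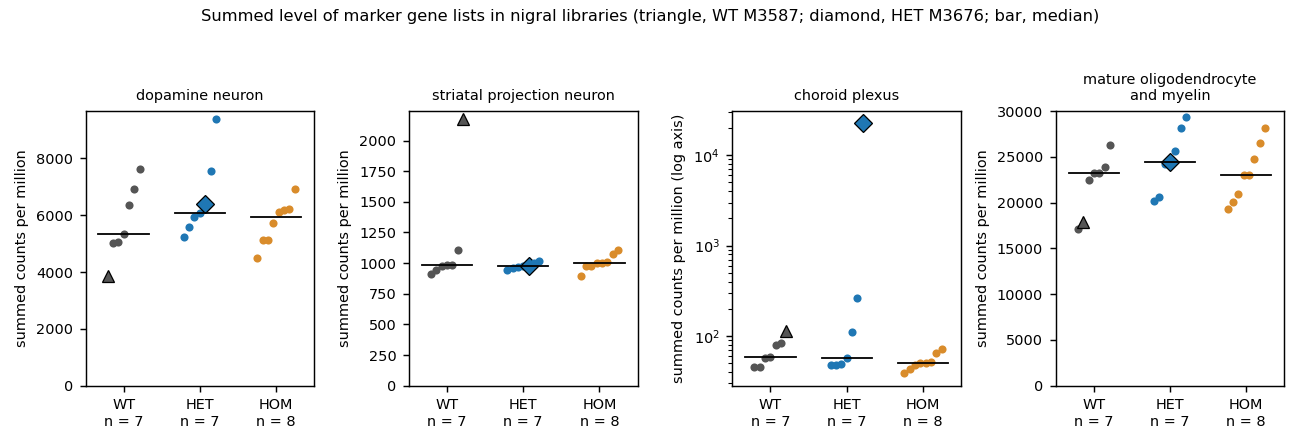
Summed cpm of the tested genes of 4 marker lists in each nigral library (points) with the median of each genotype (bars). Axes are linear from 0 except for the choroid plexus, which is on a log axis. WT library M3587 (triangle) holds the highest striatal sum, 2177 cpm, and the lowest dopamine neuron sum, 3864 cpm, and HET library M3676 (diamond) the highest choroid plexus sum, 22509 cpm.

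Across the transcriptome, the nigra of HET mice differed little from that of WT mice. Genes of dopamine neurons, myelin, vessels and the interferon response mostly had positive differences, none past the edgeR quasi-likelihood test after adjustment, with list medians from 0.12 to 0.22, while glutamate receptor and immediate-early genes mostly had negative ones, and in each of these lists the summed levels of the groups overlapped. The largest differences lay in choroid plexus and striatal genes, with Ttr at 7.14 and Ankrd63 at -3.54, and came with the libraries M3676 and M3587. No gene passed the test: by the edgeR quasi-likelihood test with Benjamini-Hochberg adjustment 0 of 14813 genes (0%) had an adjusted p under 0.1, and the lowest adjusted p was 0.946.

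At an unadjusted p under 0.05 there were 694 genes (4.69%), 369 higher in HET (2.49%) and 325 lower (2.19%), where chance alone gives about 5%. Of all genes tested 50.2% had a positive difference, the median difference was 0 and the median standard error 0.079. The counts of the gene lists below stand against these shares, 50.2% positive, 2.49% higher and 2.19% lower at an unadjusted p under 0.05, and no list was tested as a whole. Without M3587 the genes at an unadjusted p under 0.05 numbered 465 of 14793 (3.14%), and without both M3587 and M3676 345 of 14763 (2.34%), with 0 genes past the threshold in either. Other tools gave other counts. DESeq2 called 1 gene, Ankrd63, and 0 without the 2 libraries, where Ankrd63 does not pass the filter. DESeq2 by default replaces outlying counts, which acted on 84 genes of M3676, and it gave 1.04 for Ttr. Without the replacement it again called Ankrd63 alone, while 91 genes, Ttr, F5 and Kl among them, were given no adjusted p and so were not tested. The edgeR likelihood ratio test was run with the trended dispersion, a spread shared by genes of like abundance. It used no spread of each gene's own, so that genes more variable than the trend pass it more easily. It called 324 genes (2.19%), 198 higher and 126 lower. Without the 2 libraries it called 132, of which 94 were among the 324. Of the genes named below it called Chrna6, Kcnj4, Ttr, Hdc, Tph2, Isl1, Gsn, Klk6, Lcn2, Igf2 and Col3a1 both with and without the 2 libraries. A single quasi-likelihood fit of all 3 regions of the AAV-Cre mice called 22 genes in the nigra, and 0 without the 2 libraries. Drd1, Adora2a, Ankrd63, Kcnj4, F5 and Calml4 were among the 22. The regions share mice, and this fit was not repeated with mouse as a block.

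The altered gene itself was near the limit of detection in the nigra. Gdnf (Entrez 14573, chr15:7810048-7837580 of mm10) gave 2 to 22 reads per WT library (median 4), 5 to 16 per HET library (median 8) and 3 to 19 per HOM library (median 9.5), and it did not pass the filter of the test. In cpm this was 0.101 to 1.07 in WT (median 0.232) and 0.248 to 0.924 in HET (median 0.406). The highest WT value belonged to M3587, the library with striatal genes, and the other 6 WT libraries lay between 0.101 and 0.339, overlapping with 1 of the 7 HET libraries. The difference in mean log2(cpm + 0.5) was 0.29 (exact permutation test over 3432 arrangements, two-sided p = 0.203), and 0.61 with an offset of 0.1 cpm (exact two-sided p = 0.131). Without M3587 it was 0.45 (exact permutation test over 1716 arrangements, two-sided p = 0.00641). The highest HET value, 0.924 cpm, belonged to M3676, the library with choroid plexus genes. Without M3676 the difference was 0.19 (exact permutation test over 1716 arrangements, two-sided p = 0.386). Leaving out both libraries together was not tested for Gdnf. When each of the 14 libraries was left out in turn the difference ran from 0.19 to 0.45, and M3587 was the only library whose removal took the exact p under 0.05. Every value rests on 22 reads or fewer, and the part that tissue from the striatum has in the reads of M3587 was not tested.

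Genes of dopamine synthesis, storage and uptake were next in order, since they belong to the cells that respond to GDNF. Th (Entrez 21823, chr7:142892776-142899966), the rate-limiting enzyme of dopamine synthesis, ran at 387 to 875 cpm (median 584) in WT and 498 to 1106 cpm (median 654) in HET libraries. The groups overlapped over most of their range: only HET library M3610 was above the highest WT library, and 5 of 7 HET libraries were above the WT mean. The difference was 0.22 ± 0.17, and 0.16 ± 0.17 without M3587 and M3676. It was 0.09 without HET library M3610, whose level was 1106 cpm, and 0.33 without WT library M3649, whose level was 875 cpm.

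Ddc, which turns L-DOPA into dopamine, lay between 334 to 677 cpm (median 460.4) in WT and 457 to 888 cpm (median 529) in HET libraries and differed by 0.24 ± 0.15 (0.16 ± 0.15 without the 2 libraries). Slc18a2, the transporter that loads dopamine into vesicles, was measured at 376 to 717 cpm (median 492) in WT and 512 to 820.4 cpm (median 573) in HET libraries, a difference of 0.19 ± 0.13 (0.11 ± 0.13). Slc6a3 (Entrez 13162, chr13:73536747-73578672), which takes released dopamine back up, stood at 798 to 1777 cpm (median 1246) in WT and 1201 to 2191 cpm (median 1332) in HET libraries and differed by 0.23 ± 0.15 (0.14 ± 0.15). Without M3610 the differences were 0.10 for Ddc, 0.11 for Slc18a2 and 0.11 for Slc6a3. In each of these 3 genes M3610 was the highest of all 14 libraries and M3587 the lowest, and the remaining HET libraries fell within the WT range. In bulk tissue, a difference in the number of dopamine neurons in the dissected piece and a difference in RNA per neuron cannot be told apart.

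The transcription factors of these neurons were less abundant. Nr4a2, which maintains the dopamine phenotype, was at 48.3 to 83.5 cpm (median 68.5) in WT and 52.6 to 88.0 cpm (median 69.6) in HET libraries. It differed by 0.10 ± 0.13 (0.07 ± 0.14 without the 2 libraries, 0.03 without M3610 and 0.18 without M3649). Pitx3, a partner of Nr4a2 in nigral neurons, was at 4.86 to 10.4 cpm (median 7.68) in WT and 3.37 to 12.3 cpm (median 7.62) in HET libraries, with a difference of 0.03 ± 0.25 that had the opposite sign (-0.04 ± 0.27) without the 2 libraries, and -0.13 without M3750. Both genes overlapped between the genotypes, with 1 HET library above the WT range for each and 2 HET libraries, M3652 and M3586, below it for Pitx3.

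Of the 26 dopamine neuron genes 23 had a positive difference and 1, Sncg, was at an unadjusted p under 0.05 (positive differences at that level: 2.49% of all genes), with a median of 0.16 against 0 over all genes. Without M3587 and M3676 the median was 0.10, with 19 of 26 positive and 0 at an unadjusted p under 0.05. Sncg encodes gamma-synuclein, a relative of alpha-synuclein, and lay at 65.2 to 103 cpm (median 85.9) in WT and 76.8 to 151 cpm (median 100.2) in HET libraries, a difference of 0.27 ± 0.13 (0.21 ± 0.13 without the 2 libraries, and 0.15 without M3610, its highest library). Chrna6, a nicotinic receptor subunit concentrated in dopamine neurons, was at 114 to 211 cpm (median 138) in WT and 151 to 292 cpm (median 186) in HET libraries and differed by 0.32 ± 0.16 (0.28 ± 0.17, and 0.21 without M3610). The likelihood ratio test gave Chrna6 an adjusted p of 0.00144 (0.0505 without the 2 libraries) and Sncg one of 0.0394 (0.490), where the quasi-likelihood test gave 0.946 for both. For both genes all HET libraries were inside the WT range or above it, and 2 and 2 HET libraries respectively were above the highest WT library.

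**Figure D2:**
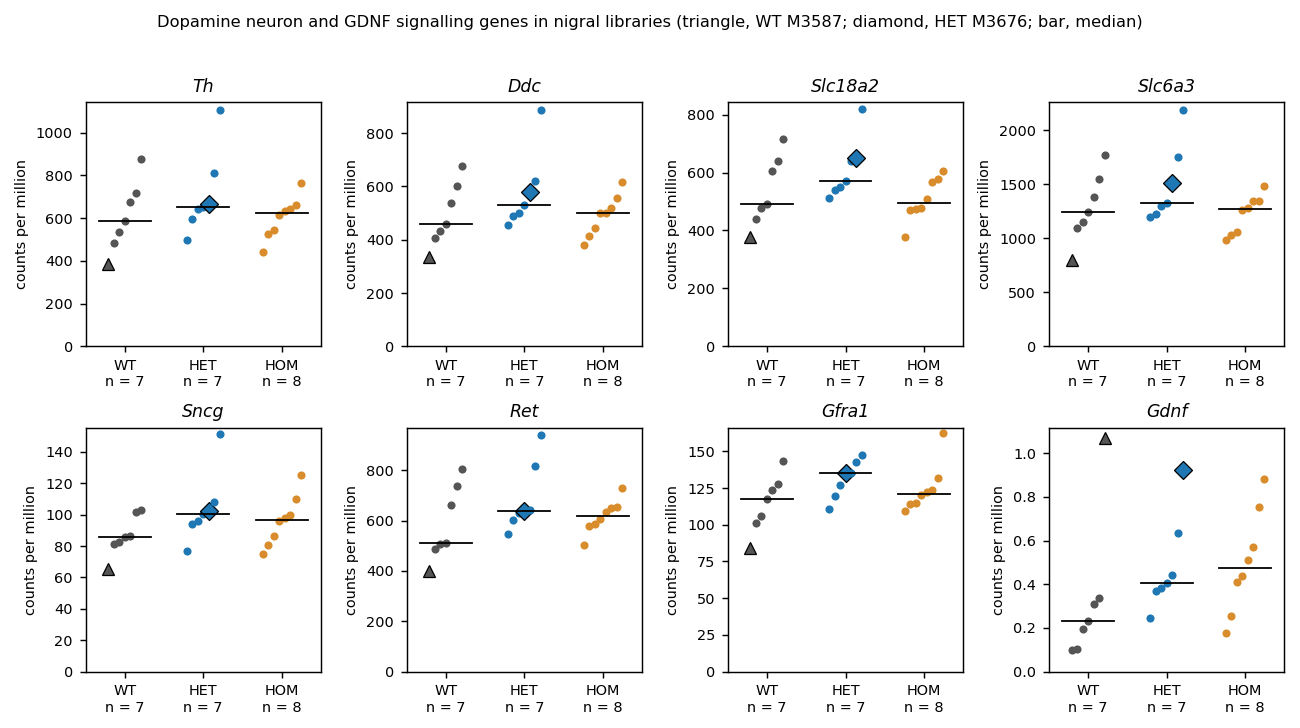
Level of 8 genes of dopamine neurons and GDNF signalling in each nigral library (points, cpm, linear axes from 0) with the median of each genotype (bars); WT library M3587 is drawn as a triangle and HET library M3676 as a diamond. HET and WT libraries overlap in every panel, M3587 is the lowest WT library for 7 genes and the highest for Gdnf, at 1.07 cpm.

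The receptors through which GDNF acts were both well expressed. Ret (Entrez 19713, chr6:118151748-118197744), the signalling kinase, ran at 399.8 to 805 cpm (median 510.1) in WT and 548 to 941 cpm (median 639.6) in HET libraries. All HET libraries were above the 4 lowest WT libraries and 2 of them were above the highest, and the difference was 0.23 ± 0.14 (0.17 ± 0.14 without M3587 and M3676, and 0.14 without M3610). Gfra1 (Entrez 14585, chr19:58235581-58455398), the GDNF-binding co-receptor, was at 84.0 to 144 cpm (median 117) in WT and 110.5 to 148 cpm (median 135) in HET libraries. The 3 lowest WT libraries were below all HET libraries, 1 HET library was above all WT libraries, and the difference was 0.19 ± 0.10 (0.13 ± 0.09). Per length the WT mean of Ret (80.0 RPKM) was above that of Gfra1 (24.2 RPKM).

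Of 13 listed genes of the GDNF family and its receptors 8 passed the filter, and Gdnf, Pspn, Gfra3, Gfral and Gdf15 did not. 3 of the 8 had a positive difference, 0 were at an unadjusted p under 0.05 and the median was -0.03 (-0.004 without the 2 libraries, with 4 positive and 0 at that level). Gfra4, the co-receptor for persephin, was at 23.3 to 29.5 cpm (median 24.8) in WT and 16.9 to 27.0 cpm (median 24.6) in HET libraries, a difference of -0.14 ± 0.09 (-0.08 ± 0.07 without M3676, and -0.08 ± 0.08 without the 2 libraries). Sdc3, a heparan sulphate proteoglycan that also binds GDNF, was at 340.4 to 411 cpm (median 367) in WT and 305 to 397 cpm (median 362) in HET libraries, a difference of -0.06 ± 0.06 that became 0.004 without the 2 libraries. For both genes 1 or 2 HET libraries lay below the WT range and none above it.

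Of the 11 neurotrophin genes 10 were tested, 7 with a positive difference and 0 at an unadjusted p under 0.05, and the median was 0.04 (-0.001 without the 2 libraries, with 5 positive and 0 at that level). Ntrk2, the receptor for BDNF, was the most abundant of them. Bdnf itself was at 18.5 to 39.8 cpm (median 26.4) in WT and 19.3 to 36.0 cpm (median 21.0) in HET libraries. It differed by -0.22 ± 0.16 (-0.15 ± 0.17 without the 2 libraries, and -0.13 without M3677). Ntf3, which encodes neurotrophin-3, differed by 0.18 ± 0.19 (0.16 ± 0.21, 0.08 without M3576 and 0.29 without M3649). The HET libraries of Bdnf all lay within the WT range. Of the 15 genes for dopamine receptors, dopamine breakdown and cofactor synthesis 14 were tested, 6 with a positive difference and 2 lower at an unadjusted p under 0.05 (2.19% of all genes were), with a median of -0.02. Without the 2 libraries the median was 0.01, with 10 of 14 positive and 0 at that level. Drd2, which encodes the autoreceptor of dopamine neurons and is also a gene of striatal neurons, was at 66.3 to 99.0 cpm (median 68.9) in WT and 64.3 to 119.5 cpm (median 81.1) in HET libraries, a difference of 0.16 ± 0.12 (0.15 ± 0.14 without the 2 libraries, and 0.06 without M3610). Its level in M3587, 68.9 cpm, was inside the range of the other WT libraries.

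Genes of striatal projection neurons mostly had negative differences, and the WT library M3587 held their highest summed level. Of 20 tested genes of this list 1 had a positive difference and 11 were lower at an unadjusted p under 0.05 (2.19% of all genes were), with a median of -0.44. Without M3587 the median was -0.13 with 1 gene at that level, and without both libraries -0.13 with 0 and 6 of 20 positive. The most abundant gene of the list was Gnal, a G protein subunit that couples dopamine receptors to cyclic AMP, at 215 to 282 cpm.

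Drd1 (Entrez 13488, chr13:54051183-54055658), the dopamine receptor of striatal neurons that project to the nigra, was at 27.8 cpm in M3587, 2.01 to 5.99 cpm in the other 6 WT libraries and 1.52 to 3.20 cpm (median 2.33) in HET libraries. Its difference was -1.56 ± 0.48 with and -0.60 ± 0.29 without M3587. Adora2a (Entrez 11540, chr10:75316877-75334792), the adenosine receptor of the other striatal output neurons, was at 39.0 cpm in M3587, 0.905 to 8.98 cpm in the other WT libraries and 1.22 to 2.94 cpm (median 1.62) in HET libraries. Its difference was -2.11 ± 0.66 with and -0.57 ± 0.40 without M3587. For Drd1 all HET libraries were below the WT mean yet only 1 below the lowest WT library, and for Adora2a only M3587 and M3649 of the WT libraries were above the highest HET library.

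Rgs9, a striatal regulator of G protein signalling, was at 139 cpm in M3587, 32.2 to 65.2 cpm in the other WT libraries and 35.1 to 44.2 cpm (median 41.7) in HET libraries, with differences of -0.61 ± 0.22 with and -0.28 ± 0.14 without M3587. Ankrd63, an ankyrin repeat protein, was at 18.0 cpm in M3587, 0.302 to 3.50 cpm in the other WT libraries and 0.102 to 0.573 cpm (median 0.245) in HET libraries. It reached 1 cpm only in the WT libraries M3587, M3649 and M3578, so that it fails the filter of the nigral fit without any of them, and its difference was -3.54 ± 0.85. In the fit of all 3 regions the difference was -3.60, and -1.99 without M3587 and M3676. Kcnj4, an inwardly rectifying potassium channel, was at 23.1 cpm in M3587, 2.09 to 11.9 cpm in the other WT libraries and 0.559 to 5.87 cpm (median 3.02) in HET libraries, and its difference was -1.49 ± 0.45 with and -0.99 ± 0.39 without M3587. Its HET and WT ranges overlapped with or without M3587, and 3 HET libraries were below the lowest WT library.

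Choroid plexus genes held the largest positive differences, and these came with the HET library M3676. All 11 tested genes of the list were higher at an unadjusted p under 0.05 (2.49% of all genes were), with a median of 3.88. Without M3676 the median was 0.18 with 0 at that level, and without both libraries 0.47 with 7 of 10 tested genes positive and 0 at that level. Folr1, Kcne2, Aqp1 and Steap1 did not pass the filter.

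Ttr (Entrez 22139, chr18:20665250-20674326), which encodes transthyretin, the main protein secreted by the choroid plexus, was at 20603 cpm in M3676, 2.17 to 196 cpm in the other HET libraries and 1.37 to 56.7 cpm (median 7.49) in WT libraries. HET library M3688 held the next highest level, 196 cpm, and the other 5 HET libraries were spread over about the same range as the WT libraries. The difference was 7.14 ± 1.75 with and 1.21 ± 0.85 without M3676. Kl, the ageing-related protein klotho, was at 581 cpm in M3676 and 2.49 to 9.60 cpm in the other HET libraries, against 2.56 to 10.8 cpm (median 4.18) in WT libraries, and its difference was 4.10 ± 1.07 with and 0.31 ± 0.41 without M3676. F5, which encodes coagulation factor V, was at 273 cpm in M3676 and 0.406 to 4.20 cpm in the other HET libraries, with differences of 5.15 ± 1.28 and 0.50 ± 0.48. Slc4a5, a bicarbonate transporter, and Sostdc1, a secreted inhibitor of BMP and Wnt signals, had differences of 4.25 ± 1.07 and 3.65 ± 0.93, which were 0.66 ± 0.41 and 0.50 ± 0.25 without M3676. For all of these the HET libraries other than M3676 overlapped with the WT libraries.

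Calml4, a calmodulin-like protein, was at 43.5 cpm in M3676, against 0.147 to 1.10 cpm in the other HET libraries, and differed by 4.59 ± 1.23. It reached 1 cpm only in M3676, HET library M3688 and 1 HOM library, so that it fails the filter of the nigral fit without M3676 or M3688, and in the fit of all 3 regions it was 4.54, and 1.17 without M3587 and M3676. Cldn2, a tight junction protein, and 1500015O10Rik had the same pattern: they were at 91.2 and 148 cpm in M3676 and at 2.05 to 3.91 cpm and 0.254 to 2.15 cpm in the other HET libraries. Of 5 tested genes of ependymal cells, which line the ventricles, 5 were positive and 2 at an unadjusted p under 0.05, with a median of 0.58 that was 0.12 without the 2 libraries, with 3 of 4 tested genes positive and 0 at that level. Foxj1, the regulator of motile cilia, was at 32.0 cpm in M3676, 9.21 to 11.6 cpm in the other HET libraries and 6.84 to 11.8 cpm (median 9.52) in WT libraries.

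**Figure D3:**
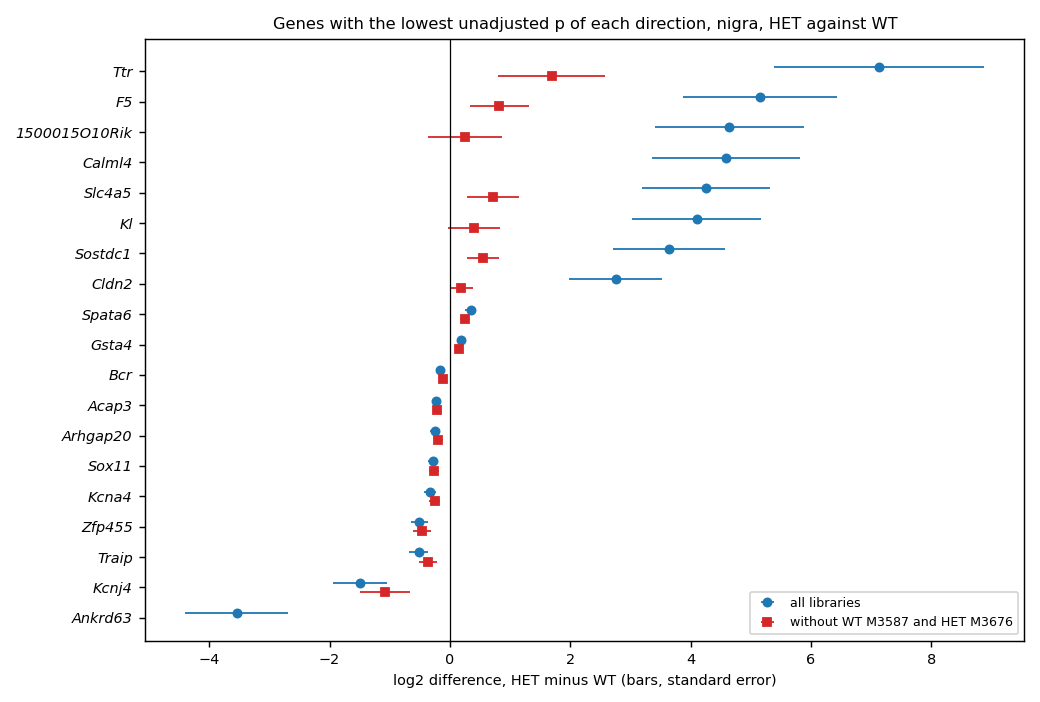
Log2 difference (HET minus WT, horizontal axis, bars are standard errors) of genes with the lowest unadjusted p in each direction, 10 higher and 9 lower, with all 14 libraries (circles) and without M3587 and M3676 (squares). Choroid plexus genes such as Ttr (7.14 and 1.69) and striatal genes such as Kcnj4 (-1.49 and -1.08) shrink without these libraries, while genes such as Zfp455 (-0.51 and -0.46) and Sox11 (-0.28 and -0.27) keep about the same value, and Ankrd63 and Calml4 do not pass the filter without them.

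Of the genes with the lowest unadjusted p in each direction 9 more, 2 higher and 7 lower, were neither choroid plexus nor striatal genes named above, and none of them passed the adjusted test. Spata6, known for its role in the sperm tail and expressed here at 8.24 to 11.6 cpm (median 10.7) in WT and 11.4 to 17.5 cpm (median 12.6) in HET libraries, differed by 0.34 ± 0.09 (0.25 ± 0.08 without the 2 libraries). Of its HET libraries 6 lay above the highest WT library at 11.6 cpm. Gsta4, a glutathione transferase that clears products of lipid peroxidation, was at 58.4 to 63.6 cpm (median 61.5) in WT and 58.5 to 75.5 cpm (median 69.1) in HET libraries, a difference of 0.18 ± 0.05 (0.15 ± 0.05). Its WT libraries lay close together and 6 of 7 HET libraries were above all of them.

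Zfp455, a zinc finger protein, was at 2.26 to 3.97 cpm (median 3.18) in WT and 1.96 to 2.92 cpm (median 2.05) in HET libraries and differed by -0.51 ± 0.14 (-0.46 ± 0.15). Sox11, a transcription factor of immature neurons, was at 10.5 to 14.7 cpm (median 11.8) in WT and 8.68 to 11.1 cpm (median 9.81) in HET libraries and differed by -0.28 ± 0.08 (-0.27 ± 0.09). In both genes 5 of 7 HET libraries were below the lowest WT library. Bcr, a kinase and GTPase regulator, was at 129 to 156 cpm (median 146) in WT and 116 to 137 cpm (median 125) in HET libraries, a difference of -0.17 ± 0.04 (-0.12 ± 0.04). Arhgap20, a GTPase-activating protein, was at 63.5 to 86.5 cpm (median 67.4) in WT and 45.4 to 70.1 cpm (median 59.7) in HET libraries, a difference of -0.26 ± 0.08 (-0.19 ± 0.07), and M3587 was its highest WT library. Acap3, which acts on Arf GTPases, differed by -0.22 ± 0.06 (-0.22 ± 0.07). Kcna4, a voltage-gated potassium channel, differed by -0.33 ± 0.10 (-0.25 ± 0.09), and Traip, a ubiquitin ligase that acts at stalled replication forks, by -0.52 ± 0.15 (-0.36 ± 0.14). The ranges of these 5 genes overlapped, with 4 HET libraries below the lowest WT library for Bcr, 6 for Arhgap20, 5 for Acap3, 2 for Kcna4 and 5 for Traip.

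Of 28 genes of mature oligodendrocytes and myelin 26 had a positive difference (50.2% of all genes did), 2 were higher at an unadjusted p under 0.05 (2.49% of all genes) and the median was 0.12. Without M3587 and M3676 the median was 0.09, with 26 positive and 1 at that level. Their summed level was 17120.2 to 26323 cpm (median 23211) in WT and 20203 to 29413 cpm (median 24492) in HET libraries, so that the groups overlapped over most of their range. Mbp, myelin basic protein and the most abundant gene of the list, was at 6892 to 11096 cpm (median 9371) in WT and 8144 to 12212 cpm (median 10254) in HET libraries and differed by 0.21 ± 0.12 (0.16 ± 0.12). Gsn, the actin-severing protein gelsolin, was at 109 to 167 cpm (median 145) in WT and 137 to 228 cpm (median 175) in HET libraries, with 5 HET libraries above the highest WT library and a difference of 0.33 ± 0.12 (0.26 ± 0.12). Klk6, a serine protease of oligodendrocytes, differed by 0.30 ± 0.14 (0.32 ± 0.15), and Mog, a myelin surface glycoprotein, by 0.21 ± 0.11 (0.17 ± 0.11). Of 12 genes of oligodendrocyte precursors and differentiating cells 6 were positive and 0 at an unadjusted p under 0.05, with a median of -0.001 (-0.02 without the 2 libraries, with 5 positive and 1 at that level).

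Of 14 astrocyte genes 4 had a positive difference and 1 was lower at an unadjusted p under 0.05, with a median of -0.03 (-0.04 without the 2 libraries, with 4 positive and 0 at that level). Slc1a3, an astrocyte transporter that clears glutamate from synapses, was at 489.5 to 641 cpm (median 513) in WT and 436 to 549 cpm (median 475) in HET libraries, with 5 HET libraries below the WT range and a difference of -0.16 ± 0.07 (-0.16 ± 0.08). Of the 12 genes of reactive astrocytes 10 were tested, 7 positive and 1 higher at an unadjusted p under 0.05, with a median of 0.15 (0.14 without the 2 libraries, with 7 positive and 1 at that level). That gene, Lcn2, an iron-binding protein of the acute phase, was close to the limit of detection at 0.0503 to 0.389 cpm (median 0.245) in WT and 0.0577 to 1.47 cpm (median 0.353) in HET libraries and differed by 1.38 ± 0.67 (1.78 ± 0.70). Lcn2 reached 1 cpm only in HET libraries M3586 and M3610 and 1 HOM library, so that it fails the filter without M3586 or M3610. Gfap, the intermediate filament of reactive astrocytes and the most abundant gene of that list, held 448 to 1121 cpm across the 14 libraries.

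Of the 20 microglia genes 19 were tested, 16 with a positive difference (50.2% of all genes) and 0 at an unadjusted p under 0.05, and the median was 0.05 (0.04 without the 2 libraries, with 16 positive and 0 at that level). Their summed level of 582 to 919 cpm (median 723) in WT and 634 to 927 cpm (median 749) in HET libraries overlapped over nearly the whole range. Trem2, a lipid receptor of microglia, was at 8.41 to 12.7 cpm (median 10.1) in WT and 7.67 to 17.4 cpm (median 12.96) in HET libraries, a difference of 0.23 ± 0.14 (0.20 ± 0.16 without the 2 libraries, and 0.13 without M3610), with 4 HET libraries above and 1 below the WT range. Aif1, the calcium-binding protein used to stain microglia, differed by 0.19 ± 0.12 (0.15 ± 0.13). Lymphocyte genes were almost absent: of 18 listed genes only Ptprc, a leukocyte gene that microglia also express, passed the filter, and the defining T cell genes Cd3e, Cd4 and Cd8a and the B cell gene Cd79a did not.

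Of the 33 interferon-response genes 30 were tested, 26 with a positive difference (50.2% of all genes) and 0 at an unadjusted p under 0.05, and the median was 0.22 (0.20 without the 2 libraries, with 27 positive and 0 at that level). Ifih1, a sensor of double-stranded RNA, was at 4.62 to 8.57 cpm (median 5.28) in WT and 5.54 to 9.73 cpm (median 7.01) in HET libraries, overlapping over most of the range, and differed by 0.28 ± 0.16 (0.23 ± 0.17, and 0.18 without M3586). Lgals3bp, a secreted glycoprotein induced by interferon, was at 71.5 cpm in M3676 and 28.3 to 34.9 cpm in the other HET libraries, and its difference of 0.34 ± 0.17 was 0.10 ± 0.10 without M3676.

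Of the 22 genes of antigen presentation 20 were tested, 18 with a positive difference (50.2% of all genes) and 1 higher at an unadjusted p under 0.05 (2.49% of all genes), and the median was 0.14 (0.22 without the 2 libraries, with 20 positive and 0 at that level). H2-Q7 had no reads in any of the 14 libraries, and Ciita did not pass the filter. B2m, the light chain of class I molecules and the most abundant gene of the list, was at 73.2 to 132 cpm (median 92.7) in WT and 78.9 to 140.0 cpm (median 101) in HET libraries. It differed by 0.17 ± 0.12 (0.19 ± 0.13 without the 2 libraries, 0.09 without M3577 and 0.27 without M3578). Tapbp, which loads peptides onto class I molecules, was at 40.5 to 46.9 cpm (median 42.1) in WT and 43.8 to 51.3 cpm (median 46.9) in HET libraries, with 4 HET libraries above the WT range and a difference of 0.13 ± 0.06 (0.12 ± 0.07). Of the 14 complement genes 13 were tested, 12 positive (50.2% of all genes) and 1 higher at an unadjusted p under 0.05 (2.49% of all genes). Their median was 0.14 (0.15 without the 2 libraries, with 10 positive and 0 at that level). It was 0.19 without M3587 alone and 0.09 without M3676 alone. Cd55, which protects cells from complement, differed by 0.36 ± 0.17 with and 0.21 ± 0.15 without M3676, its highest library, and C1qa, a subunit of the first component, by 0.14 ± 0.12 (0.12 ± 0.13 without the 2 libraries, and 0.06 without M3610).

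Genes of vessels were among those with mostly positive differences. Of 17 endothelial and mural genes 16 were positive (50.2% of all genes were) and 3 higher at an unadjusted p under 0.05 (2.49% of all genes), with a median of 0.16. Without the 2 libraries 17 of 17 were positive, 5 were at that level and the median was 0.23. The summed level ran over 682 to 886 cpm (median 753) in WT and 735 to 1198 cpm (median 920.2) in HET libraries, and the groups overlapped. Slc2a1, the glucose transporter of brain endothelium, was at 121 to 157 cpm (median 146) in WT and 135 to 188 cpm (median 168) in HET libraries, with 5 HET libraries above the WT range and a difference of 0.18 ± 0.07 (0.11 ± 0.07). Ly6a, a surface protein of endothelial cells, was at 22.4 to 30.9 cpm (median 27.4) in WT and 28.7 to 40.6 cpm (median 30.8) in HET libraries and differed by 0.29 ± 0.12 (0.34 ± 0.13). Rgs5, a gene of pericytes, was at 85.8 to 117 cpm (median 99.3) in WT and 103 to 124 cpm (median 109) in HET libraries and differed by 0.14 ± 0.06 (0.20 ± 0.06). All 7 HET libraries of Ly6a and Rgs5 were above the WT mean, yet most lay within the WT range. For Rgs5 the top of that range was M3587 at 117 cpm. The next WT library, M3588, was at 106 cpm, below the HET median of 109 cpm.

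Of 15 meningeal and collagen genes 12 were positive and 0 at an unadjusted p under 0.05, with a median of 0.27 (0.36 without the 2 libraries, with 12 positive and 0 at that level). Their sum varied widely within each group, over 181 to 794 cpm (median 318) in WT and 181 to 988 cpm (median 524) in HET libraries. Igf2, a growth factor made by the meninges and choroid plexus, was the most abundant and reached 776 cpm in M3676, against 44.0 to 272 cpm in the other HET libraries and 29.6 to 256 cpm (median 93.1) in WT libraries. Col3a1, a fibrillar collagen, differed by 0.73 ± 0.53 (1.01 ± 0.56 without the 2 libraries), and by 0.37 without M3652, its highest library at 28.6 cpm. Of the 5 blood genes 4 were in the table and 1, Alas2, the first enzyme of haem synthesis in red cells, was tested, at 3.27 to 12.0 cpm with M3577 highest. Hba-a1 and Hbb-bs had no reads in the 14 libraries, while Hba-a2 had reads but did not pass the filter. The blood content of the tissue was not tested.

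**Figure D4:**
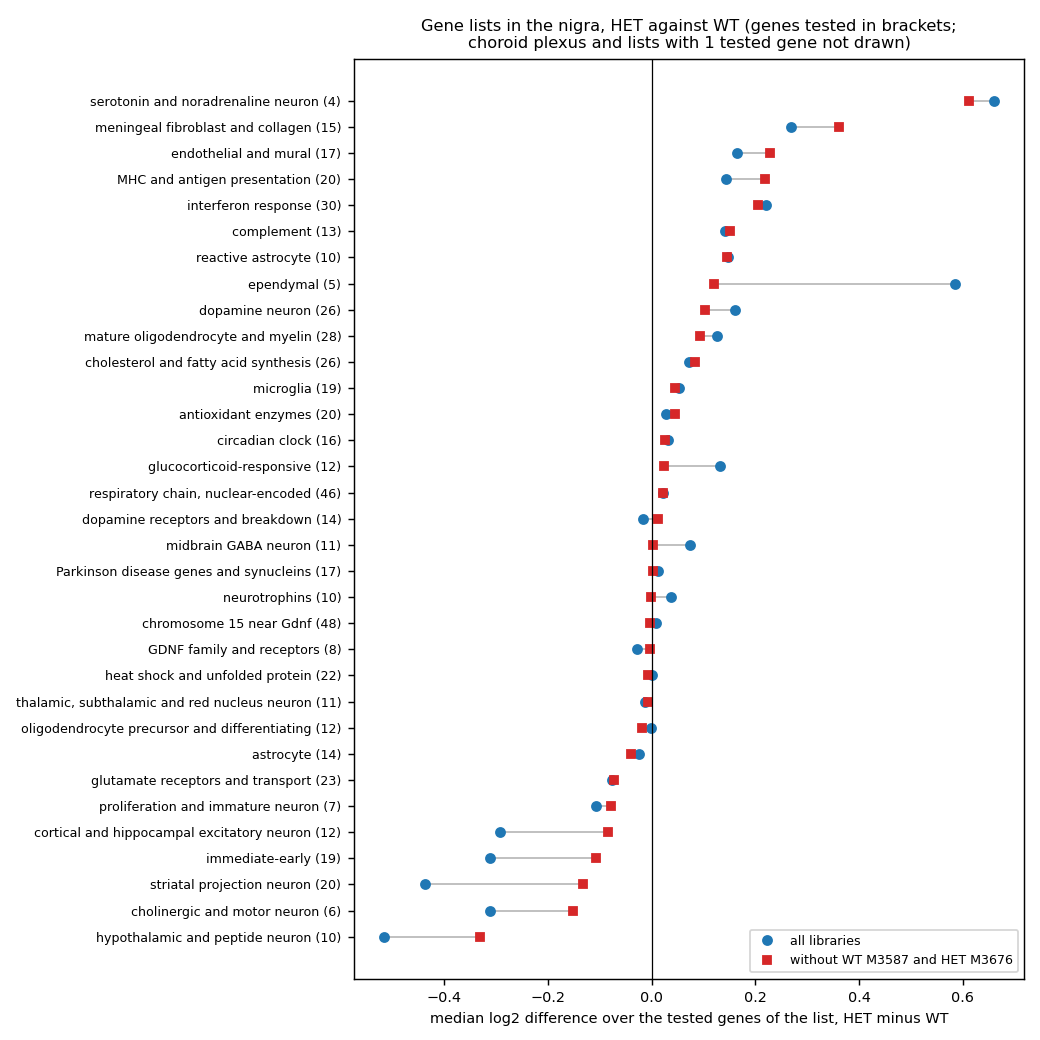
Median log2 difference (HET minus WT, horizontal axis) over the tested genes of each list, with all 14 libraries (circles) and without WT library M3587 and HET library M3676 (squares). Ependymal (0.58 and 0.12) and striatal (-0.44 and -0.13) medians move towards 0 without these libraries, while interferon (0.22 and 0.20) and glutamate receptor (-0.08 and -0.07) medians stay nearly where they were.

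Markers of the neurons that border the nigra varied between libraries of the same genotype. Of 11 midbrain GABA neuron genes 10 were positive (50.2% of all genes) and 1 higher at an unadjusted p under 0.05 (2.49% of all genes), with a median of 0.07. Without the 2 libraries 6 were positive, 0 were at that level and the median was 0.002. Gata2, a transcription factor of midbrain GABA neurons, was at 7.14 to 10.2 cpm (median 9.40) in WT and 8.12 to 12.3 cpm (median 11.6) in HET libraries, with 5 HET libraries above the WT range and a difference of 0.25 ± 0.11 (0.17 ± 0.11). Gata3, which acts downstream of Gata2, differed by 0.31 ± 0.17 (0.18 ± 0.17). M3587 was the lowest library for both. Of 11 genes of thalamic, subthalamic and red nucleus neurons 4 were positive and 0 at an unadjusted p under 0.05, with a median of -0.01 (-0.01 without the 2 libraries, with 5 positive and 0 at that level).

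Genes of more distant nuclei varied widely between mice of the same genotype. Of 15 hypothalamic and peptide genes 10 were tested, 1 of them positive and 0 at an unadjusted p under 0.05, with a median of -0.52 (-0.33 without the 2 libraries, with 1 of 9 tested genes positive and 0 at that level). Hdc, the enzyme that makes histamine in the tuberomammillary nucleus, ran over 8.43 to 50.9 cpm (median 13.4) in WT and 2.69 to 20.2 cpm (median 13.4) in HET libraries and differed by -0.96 ± 0.55 (-1.01 ± 0.61, and -0.62 without M3578). All 4 tested genes of serotonin neurons, out of 8 listed for serotonin and noradrenaline neurons, were positive and 0 at an unadjusted p under 0.05, with a median of 0.66 (0.61 without the 2 libraries, with 4 positive and 0 at that level), and the noradrenaline gene Dbh did not pass the filter. Tph2, the enzyme of serotonin synthesis in the raphe, ran over 3.38 to 55.3 cpm (median 8.40) in WT and 5.59 to 78.7 cpm (median 40.0) in HET libraries. It differed by 0.67 ± 0.69 (0.64 ± 0.76 without the 2 libraries, 0.33 without M3586 and 1.09 without M3588). Both genes overlapped widely between the groups.

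Of the 7 cholinergic and motor neuron genes 6 were tested, 1 of them positive and 1 lower at an unadjusted p under 0.05, with a median of -0.31 (-0.15 without the 2 libraries, with 2 positive and 0 at that level). Isl1, a transcription factor of motor and striatal neurons, was at 0.159 to 2.60 cpm (median 1.85) in WT and 0.102 to 1.53 cpm (median 0.485) in HET libraries and differed by -1.30 ± 0.62 (-1.09 ± 0.67). Of the 15 cortical and hippocampal excitatory genes 12 were tested, 3 positive and 1 higher at an unadjusted p under 0.05, with a median of -0.29 that was -0.08 without the 2 libraries, with 5 positive and 0 at that level. Among the 14 HET and WT libraries their summed level was highest in M3587 (417 cpm) and M3578 (346 cpm), both WT, and it was higher than in M3587 in the HOM libraries M3570 (441 cpm) and M3611 (438 cpm). Bhlhe22, a transcription factor of cortical neurons, was at 20.2 cpm in M3578 and differed by -0.47 ± 0.26 with that library and by -0.15 without it (-0.55 ± 0.28 without M3587 and M3676).

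Genes that follow neuronal activity within minutes mostly had negative differences. Of the 20 immediate-early genes 19 were tested, 0 of them positive (50.2% of all genes were) and 3 lower at an unadjusted p under 0.05 (2.19% of all genes), with a median of -0.31. Without M3587 alone the median was -0.13, with 0 positive and 2 at that level. Without M3587 and M3676 it was -0.11, with 4 positive and 1 at that level. Nr4a1, an activity-induced nuclear receptor, was at 12.99 to 24.1 cpm (median 16.7) in WT and 10.5 to 16.2 cpm (median 13.3) in HET libraries, with 3 HET libraries below the WT range and a difference of -0.40 ± 0.13 (-0.32 ± 0.13). Egr3, an activity-induced transcription factor that is abundant in striatum, was at 17.1 cpm in M3587, 2.21 to 10.5 cpm in the other WT libraries and 1.17 to 3.91 cpm (median 2.63) in HET libraries, and its difference was -1.14 ± 0.43 with and -0.60 ± 0.37 without M3587. The summed level of the list was highest in M3587, 379.5 cpm, the library with striatal genes, and the part of that tissue in the list's median was not tested beyond leaving the library out.

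Of 16 clock genes 12 were positive and 1 lower at an unadjusted p under 0.05, with a median of 0.03 (0.03 without the 2 libraries, with 12 positive and 0 at that level). Npas2, a partner of the clock protein BMAL1, was at 8.40 to 15.98 cpm (median 10.3) in WT and 6.19 to 10.4 cpm (median 8.95) in HET libraries and differed by -0.35 ± 0.15 (-0.29 ± 0.14, and -0.23 ± 0.14 without M3587 alone, its highest library). Of 12 glucocorticoid-responsive genes 11 were positive and 0 at an unadjusted p under 0.05, with a median of 0.13 that was 0.02 without the 2 libraries, with 8 positive and 0 at that level. Of 22 heat shock and unfolded protein genes 11 were positive and 0 at that level, with a median of 0 (-0.01 without the 2 libraries, with 9 positive and 0 at that level).

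Energy and redox genes differed by little. Of 46 nuclear genes of the respiratory chain 36 were positive and 1 higher at an unadjusted p under 0.05, with a median of 0.02 (0.02 without the 2 libraries, with 37 positive and 0 at that level). That gene, Cox6c, a subunit of cytochrome c oxidase, was at 98.4 to 140.0 cpm (median 116) in WT and 121 to 142 cpm (median 138) in HET libraries and differed by 0.16 ± 0.07 (0.14 ± 0.07). Of 20 antioxidant genes 16 were positive and 1 higher at that level, with a median of 0.03 (0.04 without the 2 libraries, with 16 positive and 0 at that level). That gene was Cat, which encodes catalase and was at 77.3 to 96.8 cpm (median 91.2) in WT and 89.1 to 109.5 cpm (median 97.8) in HET libraries, a difference of 0.12 ± 0.05 (0.08 ± 0.05). For both genes HET libraries sat in the upper part of the WT range or above it. Of 18 listed Parkinson disease and synuclein genes 17 were in the table and tested, 9 of them positive and 1, Sncg, at an unadjusted p under 0.05, with a median of 0.01 (0.002 without the 2 libraries, with 9 positive and 0 at that level).

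Of 26 genes of cholesterol and fatty acid synthesis 23 were positive and 2 higher at an unadjusted p under 0.05, with a median of 0.07 (0.08 without the 2 libraries, with 26 positive and 2 at that level). Scd2, a fatty acid desaturase of oligodendrocytes, was the most abundant of them. Fdft1, squalene synthase, was at 88.7 to 109.7 cpm (median 106) in WT and 95.9 to 129.8 cpm (median 112) in HET libraries, with 4 HET libraries above the WT range and a difference of 0.12 ± 0.06 (0.14 ± 0.06).

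Of 23 genes for glutamate receptors and vesicular glutamate transport 3 were positive and 4 lower at an unadjusted p under 0.05 (2.19% of all genes), with a median of -0.08. Without the 2 libraries 6 were positive, 3 were at that level and the median was -0.07. Gria2, the AMPA receptor subunit that limits calcium entry, was the most abundant, at 294 to 426 cpm (median 377) in WT and 252 to 387 cpm (median 333) in HET libraries, and differed by -0.21 ± 0.08 (-0.20 ± 0.09). Grm7, a presynaptic metabotropic receptor, was at 41.4 to 56.4 cpm (median 42.6) in WT and 30.4 to 52.3 cpm (median 35.8) in HET libraries and differed by -0.30 ± 0.10 (-0.20 ± 0.10). Grik2, a kainate receptor subunit, was at 46.8 to 71.0 cpm (median 61.5) in WT and 38.6 to 65.8 cpm (median 49.4) in HET libraries and differed by -0.26 ± 0.10 (-0.24 ± 0.11). M3610, the library with the highest dopamine neuron sum, was the lowest HET library for all 3 genes, and 5 HET libraries were below the WT range for Grm7 against 1 for Gria2 and 2 for Grik2. Of 10 genes of proliferation and immature neurons 7 were tested, 3 positive and 1, Sox11, lower at an unadjusted p under 0.05, with a median of -0.11 (-0.08 without the 2 libraries, with 3 positive and 1 at that level).

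Genes within 10 Mb of Gdnf on chromosome 15 were looked at because they are linked to the allele. Of 69 such genes 48 were tested, 25 with a positive difference, 3 higher and 1 lower at an unadjusted p under 0.05 (4.69% of all genes were at that level), and the median was 0.01 (-0.004 without the 2 libraries, with 23 of 47 tested genes positive and 1 at that level). In HOM mice 13 of the 48 were at an unadjusted p under 0.05 (7.49% of all genes), 21 were positive and the median was -0.01. Rad1 (Entrez 19355, chr15:10486018-10499063), a subunit of a DNA damage checkpoint clamp, was at 9.20 to 11.4 cpm (median 9.32) in WT and 9.79 to 12.6 cpm (median 11.0) in HET libraries and differed by 0.17 ± 0.06 (0.16 ± 0.07). Its HET libraries were all above the WT mean but only 1 was above the highest WT library. Prlr (Entrez 19116, chr15:10177238-10349180), the prolactin receptor and a choroid plexus gene, was at 207 cpm in M3676 and 11.2 to 18.6 cpm in the other HET libraries, so that its difference of 1.52 ± 0.56 had the opposite sign, -0.08 ± 0.15, without M3676. Slc1a3 lies in the same interval.

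Mice with 2 copies of the allele were compared with the same 7 WT libraries, so that neither comparison is independent of the other and M3587 enters both. In HOM against WT 0 genes passed the edgeR quasi-likelihood test after Benjamini-Hochberg adjustment, with a lowest adjusted p of 0.281. At an unadjusted p under 0.05 there were 1109 genes (7.49%), and DESeq2 called 10 genes and the edgeR likelihood ratio test 218. In HOM mice 52.8% of all genes tested had a positive difference, and the counts of positive genes in HOM mice stand against this share. The dopamine neuron list had 12 of 26 positive and a median of -0.01 in HOM mice, against 23 and 0.16 in HET mice. Th was at 441 to 762 cpm (median 623) in HOM libraries, with a HOM minus WT difference of -0.01 ± 0.16, and Slc6a3 at 985 to 1481 cpm (median 1274), with a difference of -0.07 ± 0.15. All 8 HOM libraries of both genes lay within the WT range. Ret differed by 0.07 ± 0.13 in HOM and 0.23 ± 0.14 in HET mice, and Gfra1 by 0.12 ± 0.10 and 0.19 ± 0.10. Gdnf was at 0.179 to 0.883 cpm in HOM libraries (median 0.474).

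The shared WT libraries by themselves draw the values of HET and HOM mice towards the same sign, and no likeness between the genotypes was tested. Zfp455 differed by -0.57 ± 0.13 in HOM and -0.51 ± 0.14 in HET mice, and the 8 HOM libraries ran at 1.67 to 2.46 cpm (median 2.25). Gsta4 differed by 0.14 ± 0.05 and 0.18 ± 0.05, and Spata6 by 0.18 ± 0.09 and 0.34 ± 0.09. Bcr (-0.05 ± 0.04 in HOM and -0.17 ± 0.04 in HET mice) and Traip (-0.10 ± 0.14 and -0.52 ± 0.15) had smaller values in HOM mice. Drd1 (-1.28 ± 0.45 and -1.56 ± 0.48) and Adora2a (-2.08 ± 0.63 and -2.11 ± 0.66) carry the same WT library M3587 in both comparisons. Ttr differed by -1.60 ± 1.51 in HOM mice, which had no library like M3676, the HOM libraries running at 1.46 to 23.5 cpm (median 5.15). The interferon list had a median of -0.002 with 15 of 30 genes positive in HOM mice, against 0.22 and 26 in HET mice, and the myelin list 0.05 with 22 of 28, against 0.12 and 26.

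In the injected striatum of the same experiment, HET mice had values for dopamine genes of 0.02 for Th, -0.48 for Slc6a3, 0.49 for Slc18a2, 0.06 for Ddc, 0.27 for Nr4a2, 0.13 for Pitx3, 0.14 for Sncg and 2.01 for Chrna6. Ret was at 0.14 and Gfra1 at -0.04. These striatal values are given without levels or standard errors. Chrna6 differed by -1.70 between nigra and striatum, which did not pass the adjusted test given below. The HET difference in striatum was 0.01 for Drd1 and -0.02 for Adora2a, the genes that were highest in nigral library M3587, and -0.23 for Ttr. It was 0.03 for Spata6, 0.06 for Gsta4, 0.05 for Zfp455 and -0.07 for Sox11. Whether the HET difference was not the same in nigra and striatum was tested as the interaction in 1 fit of both regions, and 0 of 15252 genes passed the edgeR quasi-likelihood test after Benjamini-Hochberg adjustment. At an unadjusted p under 0.05 there were 449 genes (2.94%), and 216 without the nigral libraries of M3587 and M3676. DESeq2 called 4 genes, Ankrd63, Adora2a and Drd1 among them, with its replacement of outlying counts, which acted on 7 genes of M3587, and 0 without that replacement, where 8 genes, these 4 among them, were given no adjusted p and so were not tested.

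In the Nestin-Cre model, where recombination starts before birth and the mice were 2 months old by their labels, the nigral HET difference was -0.13 for Th, -0.03 for Slc6a3, 0.15 for Ret and 0.14 for Gfra1. The myelin gene Mog was at -0.45 there and the complement gene C1qa at -0.46, against 0.21 and 0.14 after AAV-Cre. Drd1 was at 1.75 there and Adora2a at 3.08, against -1.56 and -2.11 after AAV-Cre, which were -0.60 and -0.57 without M3587. Rgs9, Ankrd63 and Kcnj4, which like these were highest in M3587, were at 1.28, 3.8 and 1.05 there. Whether striatal tissue in Nestin-Cre nigral libraries has a part in these values was not tested. The difference between the models was tested as the interaction in 1 fit of the nigral libraries of both, and 0 of 15108 genes passed the edgeR quasi-likelihood test after Benjamini-Hochberg adjustment, with a lowest adjusted p of 0.157. At an unadjusted p under 0.05 there were 2120 genes (14.03%), 1580 without M3587 and M3676, and DESeq2 called 16 genes. Age, the time and place of recombination and the virus differ together between the models and cannot be told apart.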

How the data were processed

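The values are the read count per gene and library deposited by the authors for 24412 genes, made with bcl2fastq 2.20.0.422, STAR 2.5.2b on mm10 and featureCounts 1.5.1. Groups came from the labels. Nigral libraries of the 3 genotypes were fitted together in R 4.3.3 with edgeR 4.0.16: at least 1 cpm in 3 of 22 libraries, TMM scaling, glmQLFit with trended dispersion (legacy mode), two-sided glmQLFTest and Benjamini-Hochberg adjustment over all genes tested, with calls at an adjusted p under 0.1. Standard errors are the log2 difference over the square root of F. Alternatives used DESeq2 1.42.0 and the edgeR likelihood ratio test with the trended dispersion alone. Pairing of nigra and striatum by mouse number was checked by correlation after removing group means: median r 0.19 over 21 mice, -0.013 between other mice.

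Named genes are a fixed set of dopamine, GDNF and striatal genes, the 10 of each direction with the lowest p, and genes of 36 lists with low p or a defining role. Some genes that meet the rule are not reported here. The most abundant gene of some lists is named for its level only. Genes and lists were chosen with earlier results of these data known. The code was tested on simulated data.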

Additional observations from a re-analysis of the deposited data

Results flagged for a closer look

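A library was marked when its gap to the nearest other library of its group, divided by the whole range of the group, was above the 95% critical value for 7 libraries. Chance marks about 1 in 20 groups when values are normally distributed, and 36 of 224 groups were marked. Some genes were picked by their p in these data, and genes that rise in the same library are not independent. That share is therefore no measure for the 36 marks.

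HET library M3676 held 16 of them. Its choroid plexus genes gave the largest ratios: Ttr 0.991, Kl 0.988, Sostdc1 0.987, 1500015O10Rik 0.987, F5 0.986, Slc4a5 0.983, Cldn2 0.979, Calml4 0.978 and Prlr 0.963. The cilia regulator Foxj1 gave 0.894, Lgals3bp 0.847, the growth factor Igf2 0.689 and Spata6 0.643. Its summed levels gave 0.99 for choroid plexus, 0.873 for ependymal and 0.602 for glucocorticoid-responsive genes.

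WT library M3587 held 7, all with the library highest: Drd1 0.846, Ankrd63 0.819, Adora2a 0.788, Gdnf 0.754, Rgs9 0.693, Arhgap20 0.659 and the summed striatal projection neuron genes 0.843. WT library M3578 was the highest for 6: Bhlhe22 0.698, 1500015O10Rik 0.679, Lgals3bp 0.625, Igf2 0.587, the summed meningeal and collagen genes 0.605 and the summed genes near Gdnf on chromosome 15 0.599.

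The other 7 were spread over 5 libraries. HET library M3610 was the highest for Ddc (0.62) and Sncg (0.58). M3652 was the highest for Zfp455 (0.606) and for Ptprc, the only tested gene of the lymphocyte list (0.585). Rgs5 was highest in HET library M3750 (0.57), and Alas2, the only tested gene of the blood list, in M3577 (0.703). WT library M3677 had the lowest summed level of complement genes (0.576).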

How the results depend on the processing

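With all 14 libraries the edgeR quasi-likelihood test called 0 genes in HET against WT nigra. Leaving out each library in turn gave 0 to 0 calls, with 465 (without M3587) to 1011 (without M3586) genes at an unadjusted p under 0.05. The edgeR likelihood ratio test called 324 genes, a fit of all 3 regions 22 and DESeq2 1. DESeq2 replaced counts of 84 genes of M3676, and without replacement it called 1 again, but 91 genes, Ttr among them, had no adjusted p and were not tested. Alternatives added after seeing the data were DESeq2 without replacement and the fits without both M3587 and M3676, here and in the comparisons below. Likelihood ratio tests on fewer libraries were added then too. They called 253 genes without M3587, 175 without M3676 and 132 without both. Without both libraries 0 genes were called by quasi-likelihood (345 at an unadjusted p under 0.05), by the fit of all regions (460) and by DESeq2 (348). The cause of these differences was not tested.

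In HOM against WT the likelihood ratio test called 218 genes and DESeq2 10, and 10 without replacement, where 91 had no adjusted p, against 0. The fit of all regions called 13, and 4 without M3587 and M3676, and quasi-likelihood without the filter on low counts 1. For nigra against striatum, paired by mouse as a replicate block, 0 genes were called as in the unpaired fit (0), with 617 against 449 at an unadjusted p under 0.05. DESeq2 called 4, and 0 without replacement, where 8 genes, these 4 among them, had no adjusted p. For AAV-Cre against Nestin-Cre nigra DESeq2 called 16 with and 16 without replacement, where 32 had no adjusted p, against 0.

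The Gdnf difference of 0.287 was 0.451 without M3587 and ran from 0.194 to 0.451 when libraries were left out in turn, and it was 0.609 with an offset of 0.1 cpm. The striatal index of M3587 was 14.9%, and 11.3% with genes at least 16-fold higher in striatum, where the median of the other libraries was 3.17%.

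Of the values of single genes 2021 kept their sign with no adjusted p under 0.1, 84 kept it and went under 0.1, and 21 reversed. Among the 2021 are genes that DESeq2 without replacement did not test, such as Ttr and Kl. A kept sign does not mean a kept size: Ttr went from 7.14 to 1.21 without M3676 and to 1.04 by DESeq2, and without M3587 Adora2a went from -2.11 to -0.57 and Drd1 from -1.56 to -0.60. Pitx3 ran from -0.128 to 0.157 when libraries were left out in turn, and was -0.039 without M3587 and M3676 by either edgeR test, -0.055 without M3587 by likelihood ratio, -0.047 in the fit of all regions and -0.043 by DESeq2, both without the 2 libraries. Sdc3 was 0.004 without the 2 libraries by either edgeR test and 0.001 by DESeq2. Prlr ran from -0.082 to 1.691 when libraries were left out in turn, and was -0.071 by DESeq2, -0.082 without M3676 by likelihood ratio, and without the 2 libraries -0.106 by either edgeR test, -0.114 in the fit of all regions and -0.11 by DESeq2.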
